A study of Homo sapiens with 5 samples.

Results

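The genes described here are the regulators MDM2 and MDM4 and 7 genes that p53 is known to switch on, CDKN1A, TP53INP1, SESN1, GDF15, BBC3, FAS and BAX, read in a human renal cell carcinoma line and its lung-metastatic descendants. They were chosen by symbol, and every probe set that the platform table gives to 1 of these symbols alone was taken, which gave 31 probe sets for 8 of the 9 genes, out of 54613 probe sets and 19775 named genes in all. The only probe set listed for BBC3 is listed with MIR3190 and MIR3191 too, so no value is given for it. RNA came from SN12C, the parental line that the labels call non-metastatic (2 arrays, biological replicates), from LM1, lung-metastatic generation 1 (1 array), and from LM2, lung-metastatic generation 2 (2 arrays, biological replicates). No treatment or genotype is named in the labels, and the sources used here do not say how each generation was derived. The question put by the series is which genes differ between these lines as they become more metastatic.

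p53 is a transcription factor that is stabilised by DNA damage and other stress and then drives genes of cell cycle arrest, repair, metabolism and cell death. MDM2 is a ubiquitin ligase that marks p53 for destruction and is itself a p53 target, which closes a negative feedback loop, while MDM4 is its relative that binds p53 and blocks its activity.

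Of the RefSeq promoter windows (GRCh38.p14; 250 bases before and 50 after each annotated start), 15 belonged to 8 of the 9 genes, and TP53INP1 had none. They were searched for the p53 response element, a pair of 10-letter half-sites side by side that reads the same on both strands, with up to 2 of its 20 letters differing. Such a match lay in 3 of the 15 windows, from 2 genes, MDM2 and FAS, against 0.649% of all 35116 windows. The matching MDM2 windows overlap and hold the same site. Counted by gene, it was 2 of 8, against 0.82% of 27305 genes. Among the other p53 targets listed below, 4 of 31 with a window had such a match. These genes were chosen for their known link to p53, so a share above that of all genes is no separate result. With up to 3 letters differing 5 of the 15 windows matched, which added SESN1 and GDF15, against 5.2% of all windows. The bases before the start are shown for the MDM2 and FAS windows and for the SESN1 window with 3 letters differing, since p53 is known to act on MDM2 through its internal promoter and on FAS through a site inside the gene. The capitals mark the matching stretch; the windows lie at chr12:68808767-68809016 (plus strand), chr10:88991181-88991430 (plus strand) and chr6:109008989-109009238 (minus strand).
MDM2: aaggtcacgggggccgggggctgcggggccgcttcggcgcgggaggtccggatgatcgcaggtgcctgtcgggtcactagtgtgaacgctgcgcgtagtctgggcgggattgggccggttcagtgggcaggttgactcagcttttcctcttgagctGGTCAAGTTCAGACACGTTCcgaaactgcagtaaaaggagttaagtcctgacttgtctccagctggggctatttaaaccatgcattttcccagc
FAS: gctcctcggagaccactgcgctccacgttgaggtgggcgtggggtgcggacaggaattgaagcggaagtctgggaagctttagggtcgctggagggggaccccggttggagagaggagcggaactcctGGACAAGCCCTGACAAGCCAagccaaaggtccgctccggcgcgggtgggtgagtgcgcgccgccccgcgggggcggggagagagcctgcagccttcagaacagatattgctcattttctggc
SESN1: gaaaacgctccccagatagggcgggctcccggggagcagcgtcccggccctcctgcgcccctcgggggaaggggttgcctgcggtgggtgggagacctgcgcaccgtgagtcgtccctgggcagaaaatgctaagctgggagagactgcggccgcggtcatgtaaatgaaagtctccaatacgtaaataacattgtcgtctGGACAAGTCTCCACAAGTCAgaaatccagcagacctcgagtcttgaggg
A match is a description of these letters, and other windows may hold sites farther from the start.

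Signals are log2 values as deposited, and a gene was read through its brightest probe set. The filter kept genes at or above 6.03, the 40th percentile of the signals, on 2 or more arrays, which left 15024 genes and all 8 readable members. The arrays differed in kind: on the LM1 array the 3' probe set of the actin control exceeded its 5' probe set by 3.43 log2 units, against 0.07 to 0.47 elsewhere, and the SN12C arrays stood a median of 0.28 apart, against 0.07 for the LM2 arrays. All 8 renal and epithelial markers with a probe set were at or above the filter value on every array, with KRT18 between 14.04 and 14.72, while of the leukocyte markers 4 to 5 of 8, of the endothelial markers 5 to 6 of 8 and of the lung epithelial markers 5 of 7 reached it. Among the renal markers PAX8 read 9.19 to 9.82. LHX1, at 6.06 to 6.08, PAX2, at 6.34 to 6.46, and CDH6, at 6.87 to 7.41, lay nearer the filter value. The leukocyte marker PTPRC lay below the filter value on all 5 arrays, and ITGAM, the brightest of the leukocyte list in LM2, read 7.18 there. Fibroblast markers had summed signals of 49.45 to 51.41 in SN12C, 52.96 in LM1 and 53.70 to 53.76 in LM2 over 8 genes, of which 4 reached the filter value on each array. COL3A1, a fibrillar collagen among them, read 6.98 and 8.98 in SN12C, 10.04 in LM1 and 10.94 and 11.11 in LM2. Without COL3A1 the other 7 summed to 42.43 to 42.47 in SN12C, 42.92 in LM1 and 42.59 to 42.82 in LM2. Both SN12C arrays thus stayed lowest, over a much narrower range, but LM1 then lay above LM2. The part of COL3A1 in the results below was not tested.

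The main comparison, LM2 against SN12C, found the feedback inhibitor MDM2 and the targets CDKN1A and TP53INP1 lower in LM2 and MDM4 and BAX higher, with LM2 arrays that do not overlap those of SN12C for these 5 of the 8 genes. None passed an adjusted p of 0.05 in limma over all genes. Each array reads a whole culture, so fewer cells with a transcript and less of it per cell cannot be told apart. By limma, 0 of 15024 genes did (0%), as did 0% of all probe sets. An unadjusted p under 0.05 was reached by 1737 genes (11.6%), 1046 higher (6.96%) and 691 lower (4.6%) in LM2, a split of 60.2% higher. With the arrays quantile normalized again it was 48.7% of the 2095 genes then at that level. Centred on their medians, the arrays gave 54.8% of 1969 genes. An unadjusted p under 0.05 was met by 4 of the 8 members, MDM2, CDKN1A and TP53INP1 (lower) and MDM4 (higher). MDM4 did not reach it in several of the alternatives given at the end, nor did CDKN1A with a replicate block. CDKN1A, TP53INP1 and MDM4 also missed it in some of the fits without a single replicate. Groups did not overlap for 39.4% of all genes, 25.3% higher and 14.1% lower in LM2. The median difference was -0.31 log2 units over the members and 0.03 over all genes. These members were chosen with earlier results of the same arrays known, so the counts describe them and are not support for a direction of the pathway.

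**Figure D1:**
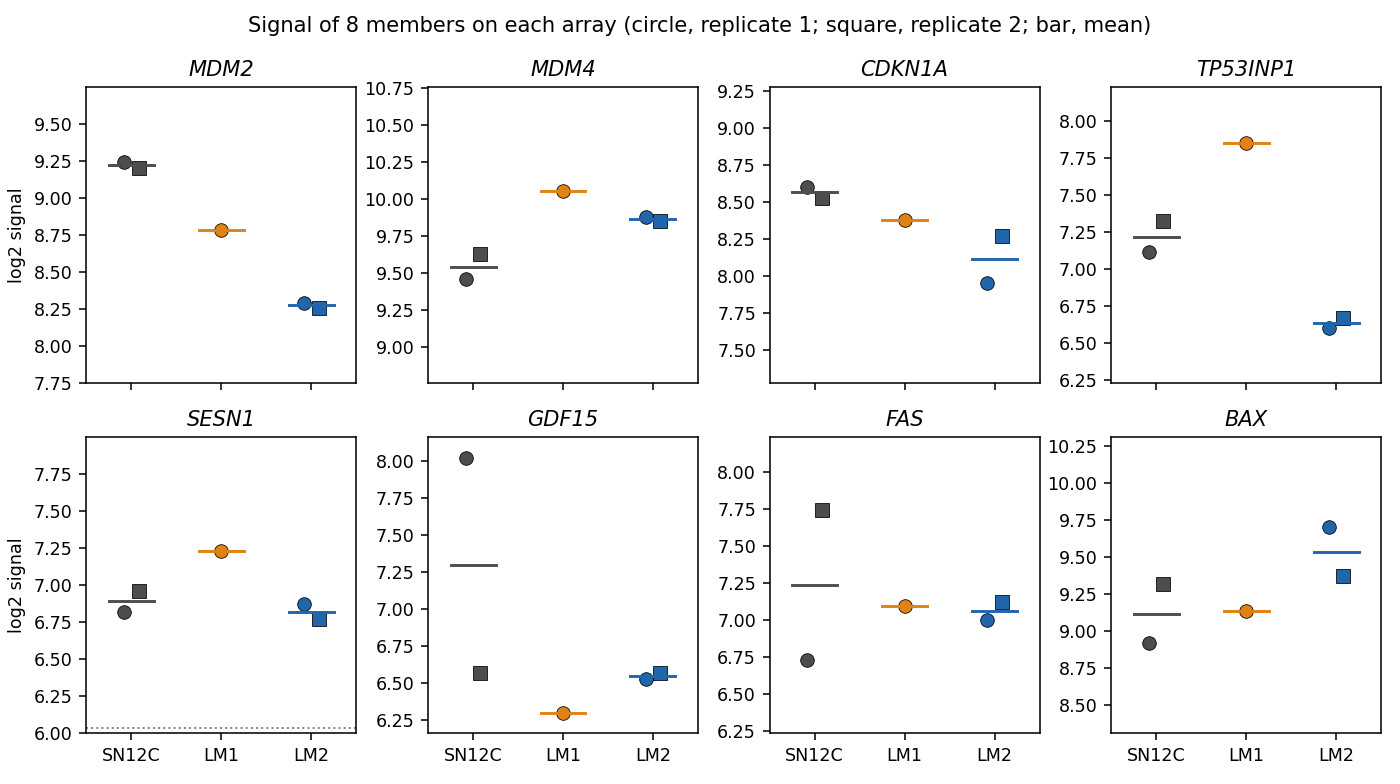
Log2 signal (vertical axis, each panel spanning the same number of log2 units but not starting at 0) of 8 genes in SN12C, LM1 and LM2 (horizontal axis), each through its brightest probe set; circles are replicate 1, squares replicate 2, bars group means, and the dotted line is the filter value of 6.03. MDM2 stands lower in LM1 than in SN12C and lower again in LM2, TP53INP1 is highest in LM1 and lowest in LM2, and the SN12C arrays of GDF15 and FAS lie far apart.

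Through its 2 brightest probe sets, MDM2 signals were ordered by generation, highest in SN12C and lowest in LM2. Its brightest probe set, 229711_s_at, read 9.24 and 9.20 in SN12C, 8.79 in LM1 and 8.29 and 8.25 in LM2. Both LM2 arrays thus lay below LM1, which lay below both SN12C arrays, and replicates of a line were within 0.04 of each other. The difference between LM2 and SN12C was -0.95 ± 0.07 log2 units (SE), 0.518 times the SN12C signal (limma, adjusted p = 0.225, equal to the lowest over all genes). Only 1.44% of the genes tested had a lower difference. LM1 differed from SN12C by -0.44 ± 0.09 (limma, adjusted p = 0.132) and LM2 from LM1 by -0.51 ± 0.09 (limma, adjusted p = 0.185). LM1 has 1 array, so these SEs take the spread of the other lines. That array is the one with the large excess of 3' over 5' actin signal, and its part in the order was not tested.

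Of the 10 probe sets for MDM2, 3 passed the filter. The next brightest, 225160_x_at, read 8.55 and 8.45 in SN12C, 7.96 in LM1 and 7.85 and 7.77 in LM2, a difference of -0.69 ± 0.07 between LM2 and SN12C (limma over all probe sets, adjusted p = 0.408). The third, 244616_x_at, had the same value of 7.97 on all SN12C and LM2 arrays and 7.93 in LM1. It therefore showed no step, and identical values of this kind are frequent in the table: 714 tested genes were equal in both SN12C arrays and 2129 in both LM2 arrays. For 225160_x_at LM2 differed from LM1 by only -0.15. The 7 dimmer probe sets had means between 4.02 and 5.41 and differed between LM2 and SN12C by -0.14 to 0.08. In LM1 they disagreed: 217542_at differed from SN12C by 0.67, 217373_x_at by -0.35 and the rest by -0.11 to 0.08. The mean of all 10 differences was -0.18 for LM2, and as a mean of its probe sets MDM2 did not reach the filter value and was not tested. Both probe sets that carried the difference are of types (_s_at and _x_at) that can bind more than 1 transcript.

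MDM4, the relative that inhibits p53 without destroying it, was higher in LM2 than in SN12C through its brightest probe set. Probe set 236814_at read 9.46 and 9.63 in SN12C, 10.05 in LM1 and 9.88 and 9.85 in LM2. The LM2 arrays lay above the SN12C arrays, and LM1 was the highest. The difference was 0.32 ± 0.10 for LM2 against SN12C (limma, adjusted p = 0.409) and 0.51 ± 0.12 for LM1 against SN12C (limma, adjusted p = 0.154). Its size depended on the probe set. Over the 6 probe sets for MDM4 the differences between LM2 and SN12C ran from -0.20 to 0.32, with 4 higher and 2 lower, and the mean of all of them gave 0.07.

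The MDM4 probe sets disagreed most in LM1. There 225740_x_at, 236814_at and 235162_at were higher than in SN12C by 0.73, 0.51 and 0.34, while 225742_at, 205655_at and 241876_at differed by -1.53, -0.71 and -0.21. Probe set 225742_at read 5.38 in LM1, against 7.27 and 6.55 in SN12C, and 225740_x_at read 9.12, against 8.63 and 8.14. A level of MDM4 in LM1 is thus not settled by these arrays, and the mean over its probe sets gave -0.14. The LM1 array is the one with the large excess of 3' over 5' signal, and its part in this disagreement was not tested.

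**Figure D2:**
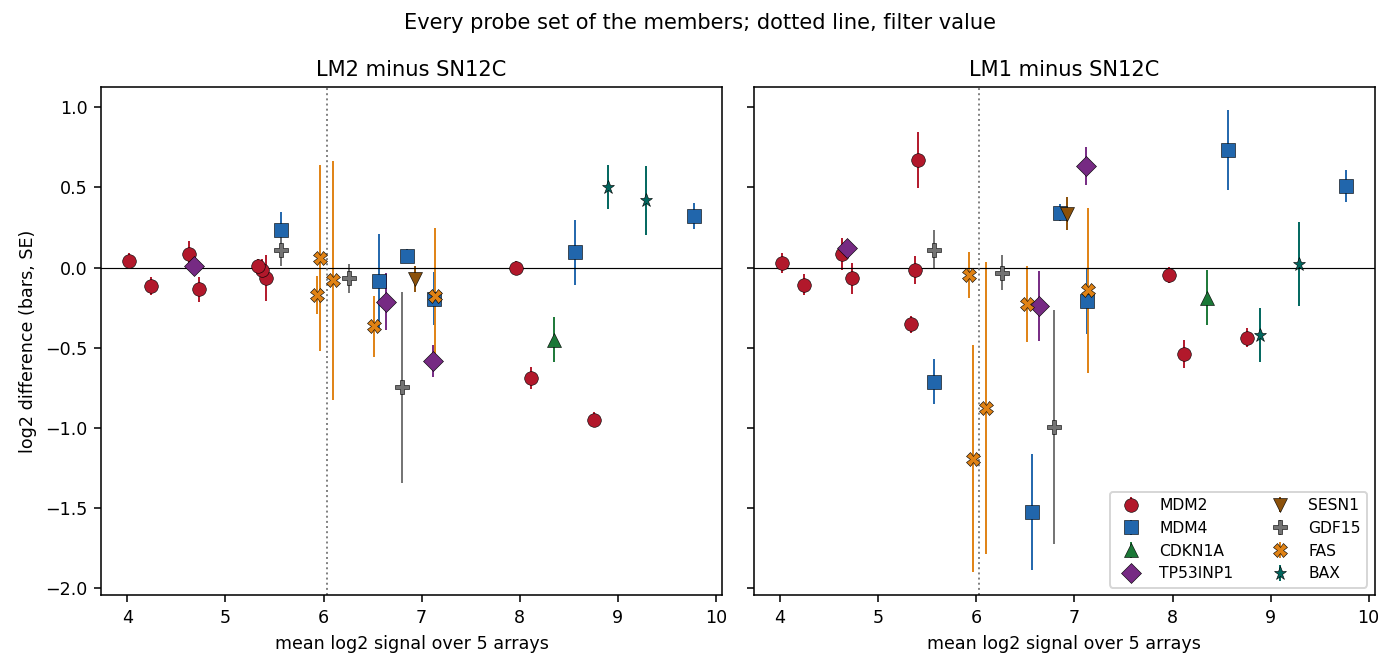
Log2 difference of LM2 (left) and LM1 (right) from SN12C (vertical axis, bars are SE from limma over all probe sets) against the mean log2 signal over 5 arrays (horizontal axis) for the 31 probe sets of 8 genes; the dotted line is the filter value. The 2 brightest MDM2 probe sets lie at -0.95 and -0.69 on the left while its dim ones lie near 0, and the MDM4 probe sets spread from -1.53 to 0.73 on the right.

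CDKN1A encodes p21, the inhibitor of cyclin-dependent kinases through which p53 arrests the cell cycle. Its single probe set read 8.60 and 8.53 in SN12C, 8.38 in LM1 and 7.96 and 8.28 in LM2. All LM2 values lay below those of SN12C, with LM1 between, but the LM2 arrays were 0.32 apart. The difference of -0.45 ± 0.15 between LM2 and SN12C (limma, adjusted p = 0.421) was -0.29 without LM2 replicate 1 and -0.61 without LM2 replicate 2. LM1 differed from SN12C by -0.19 ± 0.18 (limma, adjusted p = 0.637).

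TP53INP1, a stress-induced protein that promotes p53-dependent cell death and arrest, was far apart between the lung generations. Probe set 225912_at read 7.12 and 7.32 in SN12C, 7.85 in LM1 and 6.61 and 6.67 in LM2. LM1 lay above all other arrays and LM2 below them. LM2 differed from SN12C by -0.58 ± 0.11 (limma, adjusted p = 0.289), LM1 from SN12C by 0.63 ± 0.13 (limma, adjusted p = 0.137) and LM2 from LM1 by -1.21 ± 0.13 (limma, adjusted p = 0.178). It was the only member at least 1 log2 unit apart in LM2 against LM1, as were 3.54% of all genes, and 0.632% of genes had a lower difference there. The other probe sets did not show this pattern: 244721_at read 6.99 and 6.56 in SN12C, 6.53 in LM1 and 6.56 on both LM2 arrays, and 235602_at stayed between 4.65 and 4.77. The mean of the 3 gave -0.26 for LM2 against SN12C and 0.17 for LM1 against SN12C.

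SESN1, a sestrin that restrains growth signalling through mTORC1 under stress, read 6.82 and 6.96 in SN12C, 7.23 in LM1 and 6.87 and 6.77 in LM2. The SN12C and LM2 arrays overlapped, with a difference of -0.07 ± 0.10 (limma, adjusted p = 0.735), and LM1 was the highest. LM1 differed from SN12C by 0.34 ± 0.12 (limma, adjusted p = 0.244) and LM2 from LM1 by -0.41 ± 0.12 (limma, adjusted p = 0.264). When each array was centred on its median the LM1 difference became 0.08, while with the arrays quantile normalized again it was 0.39.

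GDF15 is a secreted stress cytokine driven by p53 and also by the integrated stress response. Probe set 221577_x_at read 8.02 and 6.57 in SN12C, 6.30 in LM1 and 6.52 and 6.57 in LM2. SN12C replicate 1 stood alone, and replicate 2 had the same value as LM2 replicate 2. The difference between LM2 and SN12C was -0.75 ± 0.57 (limma, adjusted p = 0.637), and without SN12C replicate 1 it was -0.02, while without replicate 2 it was -1.47. SESN2, the sestrin relative that shares this dual control, had a similar split, with 10.06 and 7.85 in SN12C, 7.77 in LM1 and 7.85 and 7.70 in LM2. The remaining GDF15 probe sets lay between 5.39 and 6.32 on all arrays.

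FAS is the cell surface receptor whose ligand starts cell death through caspase 8, and BAX the BCL2 family protein that opens the mitochondrial outer membrane. Probe set 204780_s_at of FAS read 6.73 and 7.74 in SN12C, 7.09 in LM1 and 6.997 and 7.117 in LM2. The SN12C replicates were 1.01 apart, and the LM1 and LM2 arrays lay between them. LM2 differed by -0.18 ± 0.40 (limma, adjusted p = 0.842), by -0.68 without SN12C replicate 1 and by 0.33 without replicate 2. The next brightest, 204781_s_at, read 6.48 and 6.94 in SN12C, 6.48 in LM1 and 6.31 and 6.37 in LM2. Its LM2 arrays lay below those of SN12C, with a difference of -0.37 ± 0.19 (limma over all probe sets, adjusted p = 0.734). The remaining FAS probe sets overlapped between SN12C and LM2. All FAS probe sets but 233820_at were higher in SN12C replicate 2 than in replicate 1, by 0.45 to 1.81.

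BAX was higher in LM2 with both of its probe sets. Probe set 211833_s_at read 8.92 and 9.32 in SN12C, 9.14 in LM1 and 9.70 and 9.38 in LM2. Probe set 208478_s_at read 8.65 and 8.91 in SN12C, 8.36 in LM1 and 9.38 and 9.19 in LM2. The LM2 arrays lay above the SN12C arrays for both, by 0.06 at the nearest for 211833_s_at. The differences were 0.42 ± 0.21 (limma, adjusted p = 0.581) and 0.50 ± 0.14 (limma over all probe sets, adjusted p = 0.633), and that of 211833_s_at was 0.22 without SN12C replicate 1. LM1 differed from SN12C by 0.02 through 211833_s_at, which became -0.24 with centred arrays, and by -0.42 through 208478_s_at.

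**Figure D3:**
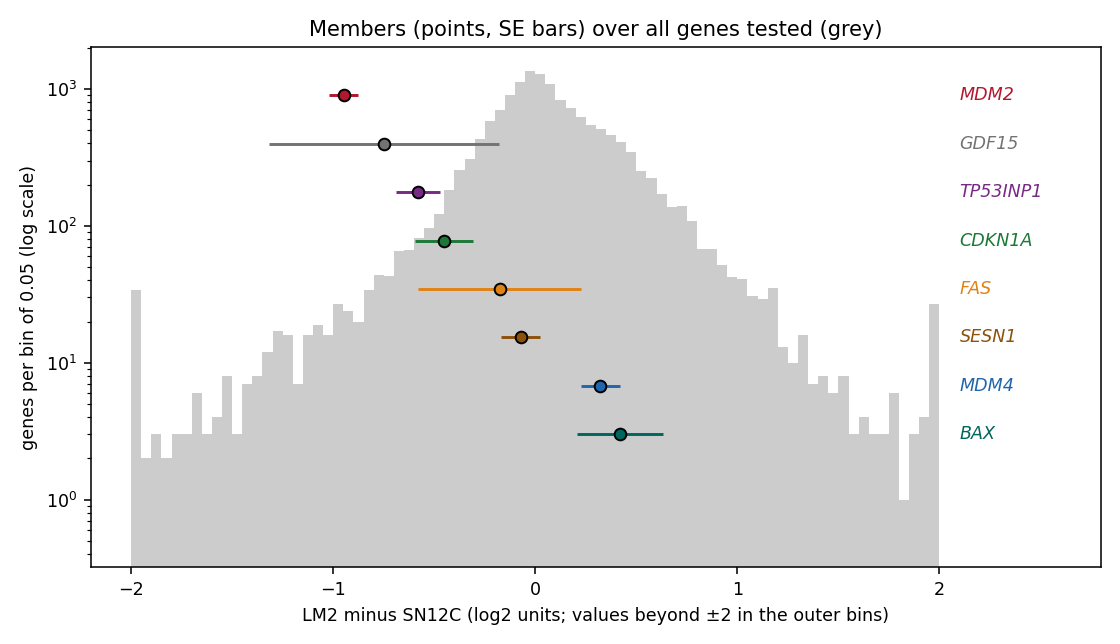
Difference of LM2 from SN12C in log2 units (horizontal axis) for 8 genes (points with SE bars, whose height on the page carries no value) over the distribution of all 15024 genes tested (grey, number of genes per bin on a log axis). MDM2 at -0.95, GDF15 at -0.75 and TP53INP1 at -0.58 lie in the lower tail and MDM4 at 0.32 and BAX at 0.42 on the upper side, with the widest bar on GDF15.

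The comparison of LM1 with SN12C shares the SN12C arrays with the one above, and its values for the members stand beside theirs as given. In LM1, 0 of 8 members were at least 1 log2 unit from SN12C, against 8.21% of all genes. GDF15 came nearest at -0.998, of which -0.27 was left without SN12C replicate 1. By limma 0 genes passed an adjusted p of 0.05, and 3325 (22.1%) had an unadjusted p under 0.05, 17.2% higher and 4.96% lower in LM1. Among the members MDM4 and TP53INP1 were higher and MDM2 lower at that level. Of the 3325 genes 77.6% were higher in LM1. With the arrays quantile normalized again 3757 genes reached that level, 72.9% of them higher in LM1. With each array centred on its median 3180 genes reached that level, 49% of them higher in LM1. Centring moved every difference by -0.26, which took the median of all genes from 0.0891 to -0.171, with 63.5% of genes then lower in LM1. With that shift, which all genes share, MDM2 differed by -0.70, CDKN1A by -0.45, TP53INP1 by 0.37 and MDM4 by 0.25. Of these only MDM2 had an unadjusted p under 0.05 with centred arrays (limma). For LM2 against LM1, 0 genes passed and 2555 (17%) had an unadjusted p under 0.05, 4.23% higher and 12.8% lower in LM2. Among the members MDM2, TP53INP1 and SESN1 were lower at that level. Of the 2555 genes 24.9% were higher in LM2. With the arrays quantile normalized again 3090 genes reached that level, 24.5% of them higher in LM2. With centred arrays 2192 genes reached that level, 56.7% of them higher in LM2. The median of all genes moved by 0.18, from -0.0665 to 0.115. MDM2, TP53INP1 and SESN1 were also lower in LM2 than in LM1 with centred arrays, at -0.33, -1.03 and -0.23. Of these only TP53INP1 kept an unadjusted p under 0.05 (limma).

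The wider pathway is given by lists written from general knowledge. Of 18 tested regulators of p53, 2 were higher and 2 lower in LM2 at an unadjusted p under 0.05, where 11.6% of all genes were, and 0 passed adjusted (limma), with a median difference of 0.07. HIPK2, a kinase that phosphorylates p53, read 9.72 and 9.66 in LM2, against 10.82 and 10.34 in SN12C, a difference of -0.89 ± 0.20 (limma, adjusted p = 0.337). ATR, a kinase of the DNA damage checkpoint, read 9.77 on both LM2 arrays, against 8.72 and 9.29 in SN12C, and was highest in LM1 at 10.21; its difference of 0.76 was 0.48 without SN12C replicate 1. EP300, an acetyltransferase and coactivator of p53, read 7.71 and 7.73 in LM2, against 8.76 and 7.77 in SN12C, with a difference of -0.54 ± 0.39 that was -0.04 without SN12C replicate 1. The other regulators at that level, named after their values were seen, were the acetyltransferase CREBBP (0.37 ± 0.11) and the ribosomal protein RPL11, which binds MDM2 (-0.27 ± 0.08). The LM2 mean of the regulators stood a median of 0.30 above SN12C replicate 1 and 0.02 above replicate 2. No gene of the lists below passed an adjusted p of 0.05 in limma.

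Other p53 targets differed in both directions. In arrest and feedback, 0 of 8 tested genes were higher and 1 lower at an unadjusted p under 0.05, with a median difference of 0.02. That gene, GADD45A, which binds the replication clamp in DNA repair and arrest, read 12.56 and 12.07 in SN12C, 11.01 in LM1 and 11.57 and 11.51 in LM2, a difference of -0.78 ± 0.21 for LM2 (limma, adjusted p = 0.374). CCNG1, a cyclin that recruits a phosphatase to MDM2, differed by -0.25 ± 0.11 and SFN, the 14-3-3 sigma protein, by 0.23 ± 0.11, both with arrays that do not overlap. Without SN12C replicate 1 these were -0.15 and 0.12.

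Among 13 tested targets of cell death, 0 were higher and 1 lower at an unadjusted p under 0.05, with a median of 0.10. TNFRSF10B, a receptor for the ligand TRAIL, read 10.36 and 10.25 in LM2, against 10.66 and 10.62 in SN12C (-0.33 ± 0.08; limma, adjusted p = 0.355). Its probe set 209294_x_at read 9.23 on both LM2 arrays, against 8.62 and 9.55 in SN12C. Probe set 210405_x_at read 9.21 and 9.19, against 8.56 and 9.50, so neither separated these lines. PIDD1, a scaffold for caspase 2, differed by 0.51 ± 0.26, and by 0.19 without SN12C replicate 1. Of the 12 tested targets in repair and metabolism, 1 was higher and 0 lower, with a median of 0.06. XPC, which recognises damaged DNA, read 9.36 and 9.43 in LM2, against 9.05 and 8.97 in SN12C (0.39 ± 0.08; limma, adjusted p = 0.309), and DDB2, its partner in damage recognition, differed by 0.65 ± 0.23. PANK1, an enzyme of coenzyme A synthesis, differed by 0.37 ± 0.29, with SN12C arrays at 7.06 and 7.77. Without SN12C replicate 1 DDB2 differed by 0.39 and PANK1 by 0.01.

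Partners of FAS and BAX were read in the same way. In FAS signalling 1 of 7 tested genes was higher and 1 lower at an unadjusted p under 0.05, with a median of -0.02. FAIM, an inhibitor of FAS-induced cell death, read 7.94 and 8.54 in SN12C, 9.68 in LM1 and 9.56 and 9.51 in LM2, a difference of 1.30 ± 0.24 for LM2 (limma, adjusted p = 0.289). CASP8, the caspase that FAS activates, read 9.87 and 9.63 in LM2, against 10.33 and 10.36 in SN12C (-0.60 ± 0.12; limma, adjusted p = 0.292). FADD, the adaptor between them, differed by 0.54 ± 0.32, and by 0.14 without SN12C replicate 1. Another CASP8 probe set, 207686_s_at, read 8.94 and 8.83 in LM2, against 8.37 and 9.40 in SN12C, and so did not separate these lines. Of the 12 tested BCL2 family genes other than BAX, 0 were higher and 0 lower at that level, with a median of 0.01. BCL2L11, a cell death activator, differed by -0.55 ± 0.26, BID by 0.46 ± 0.29 and BIK by 0.27 ± 0.09. Without SN12C replicate 1 BCL2L11 differed by -0.23 and BID by 0.10.

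Relatives of CDKN1A and of TP53INP1 differed in both directions. Of 4 other tested inhibitors of cyclin-dependent kinases, 1 was lower and 0 higher at an unadjusted p under 0.05, with a median of -0.07: CDKN1C read 7.71 and 7.66 in LM2, against 7.91 and 7.93 in SN12C. Its probe set 213182_x_at read 7.11 and 7.13 in LM2, against 7.05 and 7.36 in SN12C, and 216894_x_at and 219534_x_at overlapped too. CDKN1B differed by -0.36 ± 0.16 and CDKN2D by 0.28 ± 0.18, and by -0.18 and 0.07 without SN12C replicate 1. TP53INP2 read 7.80 and 7.79 in LM2, against 8.76 and 8.14 in SN12C (-0.65 ± 0.25; limma, adjusted p = 0.474), and differed by -0.35 without SN12C replicate 1. Cell cycle genes that p21 is known to hold down, 16 tested, had a median of 0.48 higher in LM2, with 1 higher and 0 lower at that level. Their median was 0.74 against SN12C replicate 1 and 0.14 against replicate 2. CCNE2, CDC6 and MYBL2, which act in entry into S phase, differed by 1.58 ± 1.12, 1.12 ± 0.77 and 0.83 ± 0.32. Without SN12C replicate 1, where CCNE2 read 6.91 against 9.78 in replicate 2, these were 0.15, 0.13 and 0.43. The gene at an unadjusted p under 0.05 was PLK1, a mitotic kinase named after its values were seen, which read 11.48 and 11.02 in LM2, against 10.51 and 10.36 in SN12C (0.81 ± 0.20; limma, adjusted p = 0.351).

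**Figure D4:**
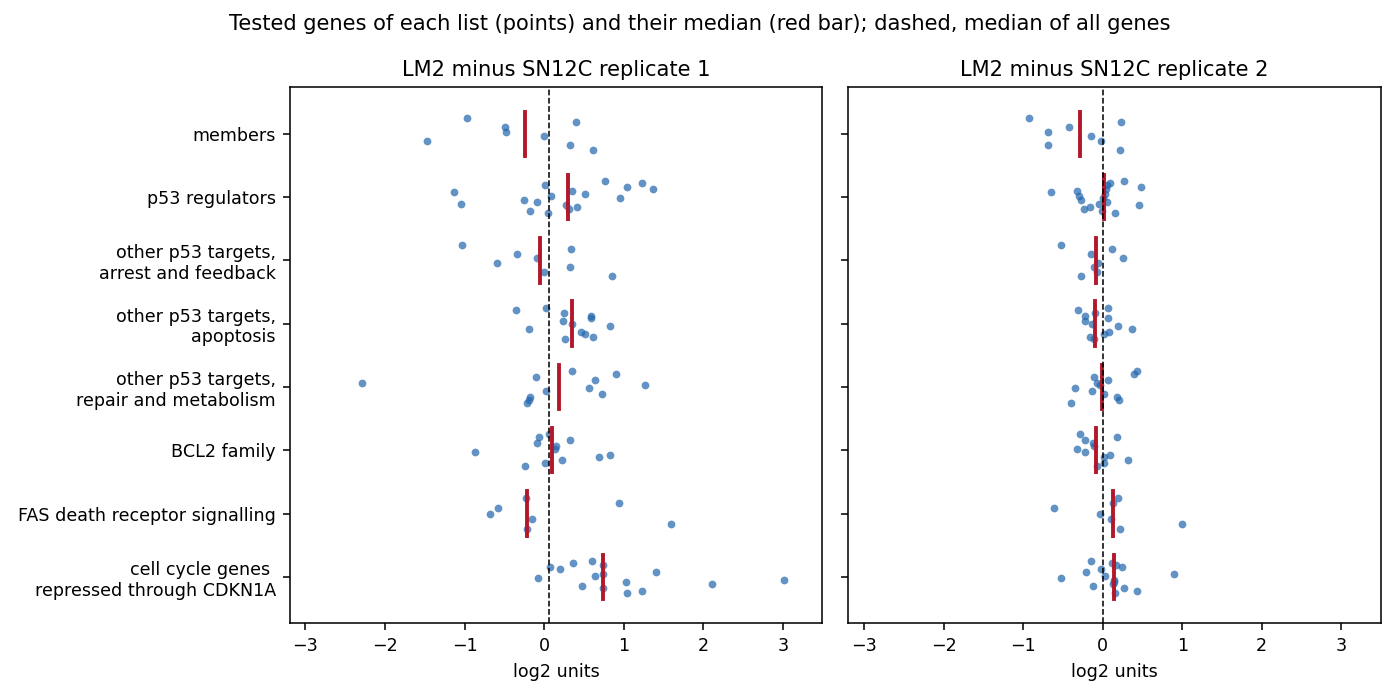
Difference of the LM2 mean from SN12C replicate 1 (left) and from SN12C replicate 2 (right) in log2 units (horizontal axis) for the tested genes of 8 lists (points are genes, red bars list medians, the dashed line the median of all genes). The medians of the cell cycle genes are 0.74 on the left and 0.14 on the right, and those of the members -0.24 and -0.28.

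The genes whose pattern over the 5 arrays was nearest to that of MDM2, by the root mean square difference of values centred on each gene's mean, were ZNF418, PTPRF, NRIP3, HYI and LOC100505715, at 0.0655 to 0.0773 log2 units, on chromosomes 19, 1, 11, 1 and 19, while MDM2 lies on chromosome 12. Their differences between LM2 and SN12C ran from -1.05 to -0.84. Those nearest to CDKN1A were MOB1B, ZNF385D, BLTP3B, SH3BGRL2 and CYP11A1, at 0.0385 to 0.0531, with differences from -0.53 to -0.40.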

How the data were processed

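RNA of 3 human cell lines was measured on 5 arrays, and each array and probe set has 1 deposited log2 signal. RMA and Partek are named in the submitters' processing notes, without versions. RMA makes 1 background-corrected, normalized log2 value per probe set. The deposited arrays had medians of 6.506 to 6.572 and SDs of 2.115 to 2.252, so their distributions were not identical. These medians are over all probe sets. The centring in the alternatives moved LM1 against SN12C by -0.26, more than these medians differ, so it used medians of another set of values.

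The 62 controls of 54675 probe sets were left out. A platform table gave 1 gene to 41091 probe sets and several to 1801, and 11777 were not listed. Symbols and chromosomes came from RefSeq (GRCh38.p14), which matched 41037. Each gene was read by the probe set with the highest mean, and tested where at least 2 arrays reached 6.03. Limma 3.58.1 (lmFit, eBayes) in R 4.3.3 fitted 1 mean per line over 15024 genes, and again over 54613 probe sets, with p-values adjusted by Benjamini-Hochberg to a threshold of 0.05. The fit leaves 2 residual degrees of freedom, and 1.3 prior ones are added. With 2 arrays a side, the smallest two-sided p of an exact permutation test is 0.333. The number of arrays limits the precision. Nothing beyond the label "biological" says that replicates were separate cultures, so the p-values cover only how far these arrays spread, which may be technical.

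Members and lists were chosen with earlier results of these data known. Named genes were all members, up to 3 per list with the largest difference between LM2 and SN12C among those whose arrays do not overlap, and the 5 nearest patterns; 207686_s_at, SESN2, CREBBP, RPL11, PLK1, the markers, PMAIP1, TOB1 and MCL1 were added after seeing values. The filter, the rule for probe sets, the scaling, options of eBayes, tied values and the arrays fitted were varied, single replicates were left out, and a replicate block was tried. The fit was tested on simulated data. The labels do not say whether replicate numbers pair the samples. The difference of replicate 1 and 2 correlated at 0.09 between SN12C and LM2 across genes. That value cannot decide it, since the LM2 arrays stood a median of only 0.07 apart. Figures were drawn with matplotlib 3.10.9.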

Additional observations from a re-analysis of the deposited data

How the results depend on the processing

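Leaving out a replicate changed the counts of genes most, since the spread then comes from 1 pair of arrays. For LM2 against SN12C the calls at an adjusted p of 0.05 ran from 0 to 3824 (0 in limma with all arrays) and those at an unadjusted p under 0.05 from 420 to 7282 (1737). For LM1 against SN12C they ran from 0 to 4823 and from 1369 to 7838 (3325), and for LM2 against LM1 from 0 to 1273 and from 706 to 5817 (2555). The most calls against SN12C came without SN12C replicate 2. There MDM2, MDM4 and GDF15 passed in LM2 (limma, adjusted p = 0.0332, 0.0451 and 0.0317) and MDM2, MDM4, TP53INP1 and GDF15 in LM1 (0.0451, 0.0343, 0.0477 and 0.0252), where only the LM2 pair gives a spread, and of the members' probe sets 6 passed, against 0 to 6 over all replicates left out. With arrays centred on their medians 22, 154 and 1 genes passed in these comparisons, and without genes with tied values 2 passed in LM2 against SN12C; no member did. The causes of these last changes were not tested. A replicate block on SN12C and LM2 gave 0 calls and 1395 genes at an unadjusted p under 0.05, with no member past an adjusted p of 0.05 in either fit. At the unadjusted level MDM4 and CDKN1A, counted in limma without the block, were not past it with the block. CDKN1A was also not past it without SN12C replicate 1, SN12C replicate 2 or LM2 replicate 1. TP53INP1 and MDM4 were not past it without LM2 replicate 1 or LM2 replicate 2. MDM4 was also not past it with the filter at the 60th percentile, the mean of probe sets or quantile normalization again. The same held with centring, eBayes with trend and genes with tied values left out (limma, unadjusted p = 0.0557 to 0.557 over these fits). MDM2, CDKN1A, TP53INP1, SESN1, GDF15, MDM4 and BAX kept their direction in LM2 against SN12C in every alternative that tested them, though GDF15 was at -0.02 without SN12C replicate 1 and SESN1 near 0 without replicate 2. FAS ran from -0.68 to 0.33 without single replicates. Against SN12C, LM1 reversed for FAS (-0.65 to 0.36 without single replicates), for MDM4 with the mean of probe sets (-0.144) and for BAX with that mean (-0.201), quantile normalization again (-0.118), centring (-0.241) and single replicates left out (-0.179 to 0.218). LM2 against LM1 reversed for MDM4 with the mean of probe sets (0.218) and for FAS with it (0.351), with centring (0.149) and without LM2 replicate 1 (0.0271, down to -0.0936 without replicate 2). The causes of these reversals were not tested. MDM2, CDKN1A, SESN1, GDF15, FAS and BAX had no bright probe set outside the _x_at and _s_at types. Signals near 6.03 lie near background and give no firm size of a difference.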

Other observations

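PMAIP1, which encodes the cell death activator NOXA and was chosen after its values were seen, stood apart in LM1. Probe set 204285_s_at read 10.76 and 10.72 in SN12C, 8.90 in LM1 and 10.72 and 10.86 in LM2. LM1 thus lay below all other arrays, by -1.83 ± 0.11 log2 units from SN12C (limma, adjusted p = 0.0964). Its other probe set, 204286_s_at, read 10.17 and 10.06 in SN12C, 10.06 in LM1 and 10.06 and 10.005 in LM2 and showed no such step. The LM1 array is the one whose actin control stood 3.43 log2 units higher at 3' than at 5'. Single probe sets of other genes were low there too: 228834_at of TOB1 read 7.72 and 10.79 in SN12C, 4.45 in LM1 and 10.54 and 10.63 in LM2, and 200796_s_at of MCL1 read 8.78 and 10.20 in SN12C, 5.17 in LM1 and 10.28 and 10.04 in LM2. The part of RNA quality in these values was not tested.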
